A study of Homo sapiens with 6 samples.

Results

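Anoctamin 1 (ANO1) and 7 other genes of chloride transport and lipid scrambling were followed in RNA sequencing of BxPC-3 cells treated with miR-4711-5p. The 8 genes were the anoctamins ANO1, ANO6, ANO8, ANO9 and ANO10 and the chloride channel genes CFTR, CLCN3 and CLIC1, taken by gene symbol from the 26255 symbols measured. The question was how the RNA of ANO1 compared with that of its relatives and of other chloride channels after the miRNA treatment.

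Anoctamins form a family of membrane proteins of which some members are calcium-activated chloride channels and others are calcium-dependent lipid scramblases that move phospholipids between the leaflets of a membrane. ANO1, also called TMEM16A, is the chloride channel opened by intracellular calcium in secretory epithelia, and its gene is amplified or highly expressed in several carcinomas. In the ducts of the pancreas, chloride and bicarbonate leave the cell mainly through CFTR, a channel opened by cyclic AMP, with calcium-activated channels providing an additional route. A miRNA lowers the RNA or the translation of transcripts that pair with its seed, the short stretch near its 5′ end, most often through sites in the 3′ untranslated region (3′ UTR).

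BxPC-3 is an established human epithelial line from a pancreatic adenocarcinoma. Of the 6 libraries, 2 came from untreated cells (Parent), 2 from cells given a negative control (NC-1, the name used in the sample titles) and 2 from cells given miR-4711-5p. RNA was sequenced 36 h after transfection to look for transcripts that decrease with the miRNA. The 3 groups share the one cell line and its genotype, and an untreated and a control-treated arm are both present. Nothing in the sources used here says that the 2 libraries of a group came from separate cultures, so that p-values measure the spread between these libraries, which may be technical.

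The mature miRNA is shown first because its seed defines the sites. The sequence is RefSeq's, whose table is on GRCh38.p14, and the capitals mark the seed, positions 2 to 8 from the 5′ end.
hsa-miR-4711-5p: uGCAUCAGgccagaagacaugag

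The 3′ UTRs of the 8 genes were searched on the transcribed strand for the DNA letters that pair with this seed. An 8mer match is CTGATGCA, a 7mer-m8 match is CTGATGC, and a 7mer-A1 match is TGATGCA; a 7mer inside an 8mer was counted once, as the 8mer. In the longest annotated 3′ UTR, 3 of the 8 genes held a match (ANO1, ANO6 and CFTR), and among the 7 genes that passed the expression filter 2 did (28.6%), against 18.2% of all genes that passed it and had a matched annotation (2038 of 11180). ANO8, ANO9, ANO10, CLCN3 and CLIC1 held none of these letters there. The study chose ANO1 partly for a seed match, so that nothing is read from the share of 28.6%. The 30 bases around each match in the anoctamins and CFTR are printed 5′ to 3′ with the match in capitals, because they carry the difference between these 3 genes and the other 5. All coordinates are on GRCh37 (hg19), and all 3 genes lie on the plus strand.
ANO1 3′ UTR, 7mer-m8, chr11:70035450-70035456: tatttgctaaaatcatgcaatCTGATGCtt
ANO1 coding region, 7mer-m8, chr11:69933883-69933889: tgaactccttatctgtggaccCTGATGCcg
ANO6 3′ UTR, 7mer-A1, chr12:45824933-45824939: tgtctctcttgatcgtgttaaTGATGCAat
CFTR 3′ UTR, 8mer, chr7:117308511-117308518: tctggagggaagccttggggCTGATGCAgt

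The ANO1 match began 1340 nt into the 1526 nt of the longest 3′ UTR and was in 2 of the 4 coding transcripts annotated for ANO1, while its coding match was in 3 of them. The ANO6 match began at position 1839 of 3040 nt and was in 5 of 8 coding transcripts. The CFTR match was the only 8mer and began at position 1349 of 1557 nt, in 4 of 8 coding transcripts. The matches are descriptions of the sequence, and no pairing was measured.

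**Figure D1:**
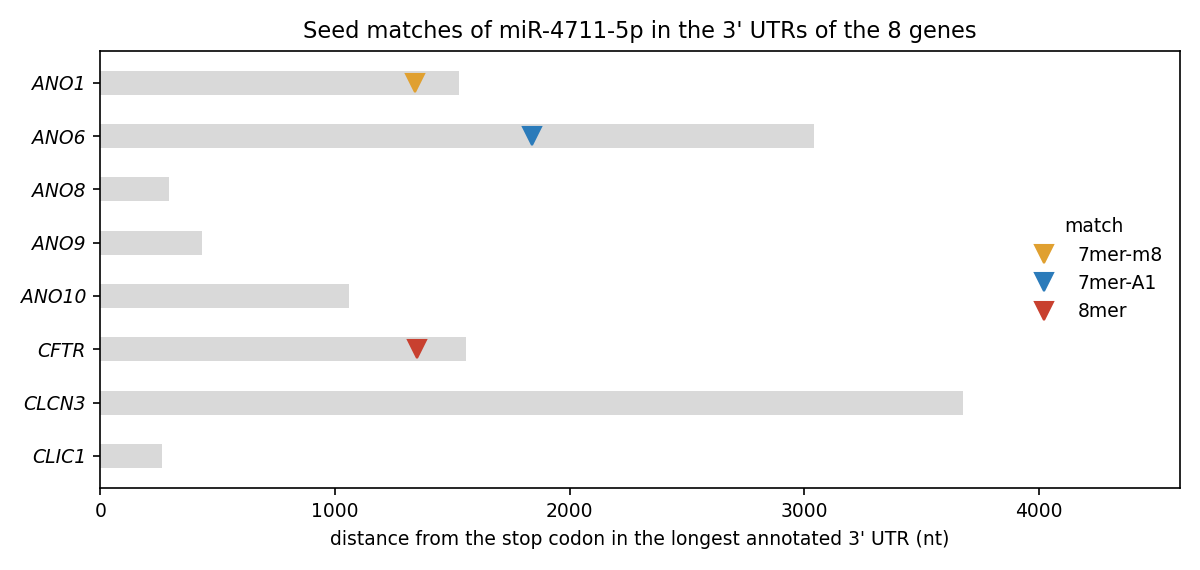
The longest annotated 3′ UTR of each of the 8 genes is drawn as a grey bar from the stop codon, with length in nt on the x axis, and triangles mark matches to the miR-4711-5p seed by class. ANO1, ANO6 and CFTR have 1 match each, at positions 1340, 1839 and 1349, and the other 5 genes have none.

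The values are FPKM (fragments per kilobase of transcript, scaled to the number of mapped fragments), a level per length, so that genes can be compared within a library. The sum of FPKM per library was between 493145 and 550772, and 16597 to 16808 genes were above 0 in the 4 control libraries against 17146 and 17305 in the miR-4711-5p libraries. The number of reads behind the values is unknown, but the most frequent ratio between libraries of values under 0.1 FPKM, shared by 29.0% to 36.8% of such genes, put the depth relative to Parent replicate 1 at 0.751 to 0.873 in the other controls and at 1.08 and 1.21 in the miR-4711-5p libraries. As a check of the cell line, the summed level of 6 epithelial markers was 5195 to 6247 FPKM, while 4 leukocyte markers summed to at most 0.257 FPKM and KIT, which marks the ANO1-positive pacemaker cells of the gut, was at 0 in all 6 libraries. Markers of endothelial cells (3 genes), mostly CDH5, summed to 1.39 and 1.33 FPKM in Parent, 3.53 and 3.23 FPKM in NC-1, and 0.775 and 0.649 FPKM in miR-4711-5p, and those of fibroblasts (4 genes) to 1.30 to 2.44 FPKM. Of 4 acinar markers 2 were at 0 throughout, and their sum, almost all PRSS1, was 0.730 and 1.57 FPKM in Parent, 2.73 and 2.62 FPKM in NC-1, and 3.18 and 5.10 FPKM in miR-4711-5p. The epithelial markers did not move as 1 set. CDH1 (E-cadherin) was at 28.3 and 30.9 FPKM in miR-4711-5p against 109 to 117 FPKM in the controls, KRT19 had means of 1629, 1274 and 901 FPKM in Parent, NC-1 and miR-4711-5p, the same order of groups as ANO1, and KRT18 and EPCAM were above all controls in both miR-4711-5p libraries. How many of all genes showed the order of KRT19 was not counted. The part of these marker differences in the results below was not tested.

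ANO1 (plus strand of chromosome 11, chr11:69832013-70035636 on GRCh37) was the most abundant anoctamin in every library. Its level was 102 and 100.2 FPKM in the Parent libraries, 82.5 and 84.4 FPKM in the NC-1 libraries, and 45.7 and 46.0 FPKM in the miR-4711-5p libraries. The 3 groups did not overlap, with miR-4711-5p lowest and NC-1 between miR-4711-5p and Parent. The same position, both below every control library, was found for 26.3% of all genes tested. The means were 101 ± 1.53 (SD, n = 2), 83.4 ± 1.34 (SD, n = 2) and 45.8 ± 0.226 FPKM (SD, n = 2). Exons of ANO1 share 477 bp with ANO1-AS1 on the opposite strand and 260 bp with a noncoding gene on the same strand in the annotation used, neither of which has a value here. Less ANO1 RNA in every cell and fewer cells holding it cannot be told apart in such bulk libraries.

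Apart from the sequencing, the study reported lower ANO1 RNA by quantitative PCR in pancreatic cancer cells given the miRNA, and those values were not used here. The study singled out ANO1 from these same libraries, by its decrease from Parent, its level in Parent and a seed match. The difference between miR-4711-5p and Parent is for that reason a description: the ratio of mean FPKM corresponded to a fold change of -2.21, where the minus sign marks a decrease, and the log2 fold change of FPKM + 1 was -1.13 (SE 0.041). Among 6606 genes above 10 FPKM in the Parent mean, 89 (1.35%, ANO1 included) had a ratio of Parent to miR-4711-5p at least as large as that of ANO1. Against NC-1, whose libraries that selection did not use, the fold change was -1.82 and the log2 fold change -0.85 (SE 0.041, limma adjusted p = 1.39e-05), although the miR-4711-5p libraries are the same in both comparisons. NC-1 itself was below Parent, whose libraries that selection had used (fold change -1.21, on the log2 scale -0.28, SE 0.041, limma adjusted p = 0.0047). The difference between ANO1 in miR-4711-5p and in the controls thus depended in size on which control was taken. In all 14 alternative settings the log2 fold change lay between -1.14 and -1.10 against Parent and between -0.87 and -0.83 against NC-1.

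ANO1 made up most of the summed FPKM of the 10 anoctamin genes in every library, so that its share of the sum restates its decrease. Its share was 73.4% and 72.9% in Parent, 67.3% and 67.7% in NC-1, and 53.4% and 54.6% in miR-4711-5p. The groups did not overlap in the share. The sum itself was 139 and 138 FPKM in Parent, 122 and 125 FPKM in NC-1, and 85.5 and 84.2 FPKM in miR-4711-5p, and was thus lowest where ANO1 was lowest. Nothing is read from the share or the sum beyond the decrease of ANO1, on which the study chose it against Parent.

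ANO6, a calcium-dependent scramblase that exposes phosphatidylserine on the cell surface and also conducts ions, was the second most abundant anoctamin. It was at 17.9 and 18.2 FPKM in Parent, 19.7 and 19.5 FPKM in NC-1, and 18.2 and 17.9 FPKM in miR-4711-5p. The miR-4711-5p and Parent libraries overlapped, and both NC-1 libraries were higher. The log2 fold change against Parent was -0.0021 (95% confidence interval -0.11 to 0.11, limma adjusted p = 0.978) and against NC-1 -0.11 (-0.23 to -0.0016, limma adjusted p = 0.0976). ANO6 thus held a 3′ UTR match and did not pass the test in either comparison.

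ANO10, an anoctamin found mainly on intracellular membranes, was at 10.9 and 11.2 FPKM in Parent, 10.3 and 10.1 FPKM in NC-1, and 10.4 and 10.6 FPKM in miR-4711-5p. The miR-4711-5p libraries lay between those of NC-1 and Parent. Its log2 fold change was -0.07 against Parent (95% confidence interval -0.19 to 0.06, limma adjusted p = 0.361) and 0.05 against NC-1 (-0.08 to 0.17, limma adjusted p = 0.543). An exon of ANO10 shares 170 bp with ABHD5 on the opposite strand, which reached 9.48 FPKM, and whether strand was used in counting is not given in the sources used here.

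ANO9, described as a scramblase and cation channel, was at 5.35 and 5.20 FPKM in Parent, 7.01 and 7.48 FPKM in NC-1, and 7.63 and 5.98 FPKM in miR-4711-5p. Both treated groups lay above Parent, and the 2 miR-4711-5p libraries spanned the NC-1 range. Against Parent the log2 fold change was 0.31 (SE 0.1, limma adjusted p = 0.0478) with miR-4711-5p and 0.39 (SE 0.1, limma adjusted p = 0.031) with NC-1. Between miR-4711-5p and NC-1 it was -0.09 (95% confidence interval -0.33 to 0.16, limma adjusted p = 0.542). The call for NC-1 was lost without either library of Parent or of NC-1, and the call with miR-4711-5p against Parent was lost in 5 of the 6 fits that left out 1 library (adjusted p up to 0.255), all but the one without miR-4711-5p replicate 2, and the log2 fold change was 0.15 without miR-4711-5p replicate 1. It was also lost with a replicate block (adjusted p = 0.0566), without a trend in the prior (adjusted p = 0.0611), in the fit of only the 2 groups (adjusted p = 0.0793) and without a filter on low values (adjusted p = 0.12), and the last of these also ended the call for NC-1 (adjusted p = 0.0925).

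ANO8, which tethers the endoplasmic reticulum to the plasma membrane, was the lowest anoctamin that passed the filter of a mean of 1 FPKM. Its level was 2.47 and 2.14 FPKM in Parent, 2.55 and 2.65 FPKM in NC-1, and 2.89 and 2.74 FPKM in miR-4711-5p. Both miR-4711-5p libraries were above all 4 controls, which 23.8% of all genes tested also showed. The log2 fold change was 0.21 versus Parent (95% confidence interval -0.01 to 0.43, limma adjusted p = 0.114) and 0.08 versus NC-1 (-0.14 to 0.30, limma adjusted p = 0.52), and neither passed the test. Without a trend in the limma prior ANO8 was called against Parent (adjusted p = 0.0497). ANO8 shares 76 bp of exon with DDA1 on the opposite strand, which reached 15 FPKM.

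CFTR was listed at 0 in 5 of the 6 libraries and at 0.0189 FPKM in miR-4711-5p replicate 1. No comparison was made for CFTR, since it did not pass the filter. The gene with the only 8mer match of the 8 was therefore not measurable here.

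CLCN3, a chloride and proton exchanger of endosomes and related vesicles, was at 12.2 and 12.1 FPKM in Parent, 14.5 and 14.8 FPKM in NC-1, and 12.1 and 12.5 FPKM in miR-4711-5p. The NC-1 libraries stood above the other 4, and miR-4711-5p and Parent overlapped. Its log2 fold change was -0.23 against NC-1 (SE 0.052, limma adjusted p = 0.0104), 0.01 against Parent (95% confidence interval -0.11 to 0.13, limma adjusted p = 0.867), and 0.25 for NC-1 against Parent (SE 0.052, limma adjusted p = 0.0143). CLCN3 was thus lower with miR-4711-5p only when NC-1 was the reference, and that call was lost without NC-1 replicate 2 (adjusted p = 0.0548) and without miR-4711-5p replicate 1 (adjusted p = 0.0774). For NC-1 against Parent the call was lost without either library of either group.

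CLIC1, a small protein that occurs both in the cytosol and as a membrane channel, was the most abundant of the 8 genes. Its level was 469 and 446 FPKM in Parent, 404.4 and 404.3 FPKM in NC-1, and 424 and 436 FPKM in miR-4711-5p. The miR-4711-5p libraries lay between NC-1 and Parent. The log2 fold change was -0.09 against Parent (95% confidence interval -0.19 to 0.01, limma adjusted p = 0.126), 0.09 against NC-1 (-0.01 to 0.19, limma adjusted p = 0.133), and -0.18 for NC-1 against Parent (SE 0.042, limma adjusted p = 0.0214), a call that was lost in 3 of the 6 fits that left out 1 library, without a filter on low values (adjusted p = 0.0551) and without a trend in the prior (adjusted p = 0.0622). CLIC1 shares 37 bp of exon with DDAH2 on the same strand, which reached 37.7 FPKM.

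Within each group the order of the 8 genes by mean FPKM was the same: CLIC1, ANO1, ANO6, CLCN3, ANO10, ANO9, ANO8 and CFTR. In each group, both libraries of a gene were above both libraries of the next gene in that order. The decrease of ANO1 thus left it above ANO6 by a smaller margin, with 45.8 against 18.0 FPKM in miR-4711-5p and 101 against 18.1 FPKM in Parent. Among all genes ordered by FPKM, ANO1 stood at place 857 and 863 in Parent, 1005 and 988 in NC-1, and 1915 and 1903 in miR-4711-5p.

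**Figure D2:**
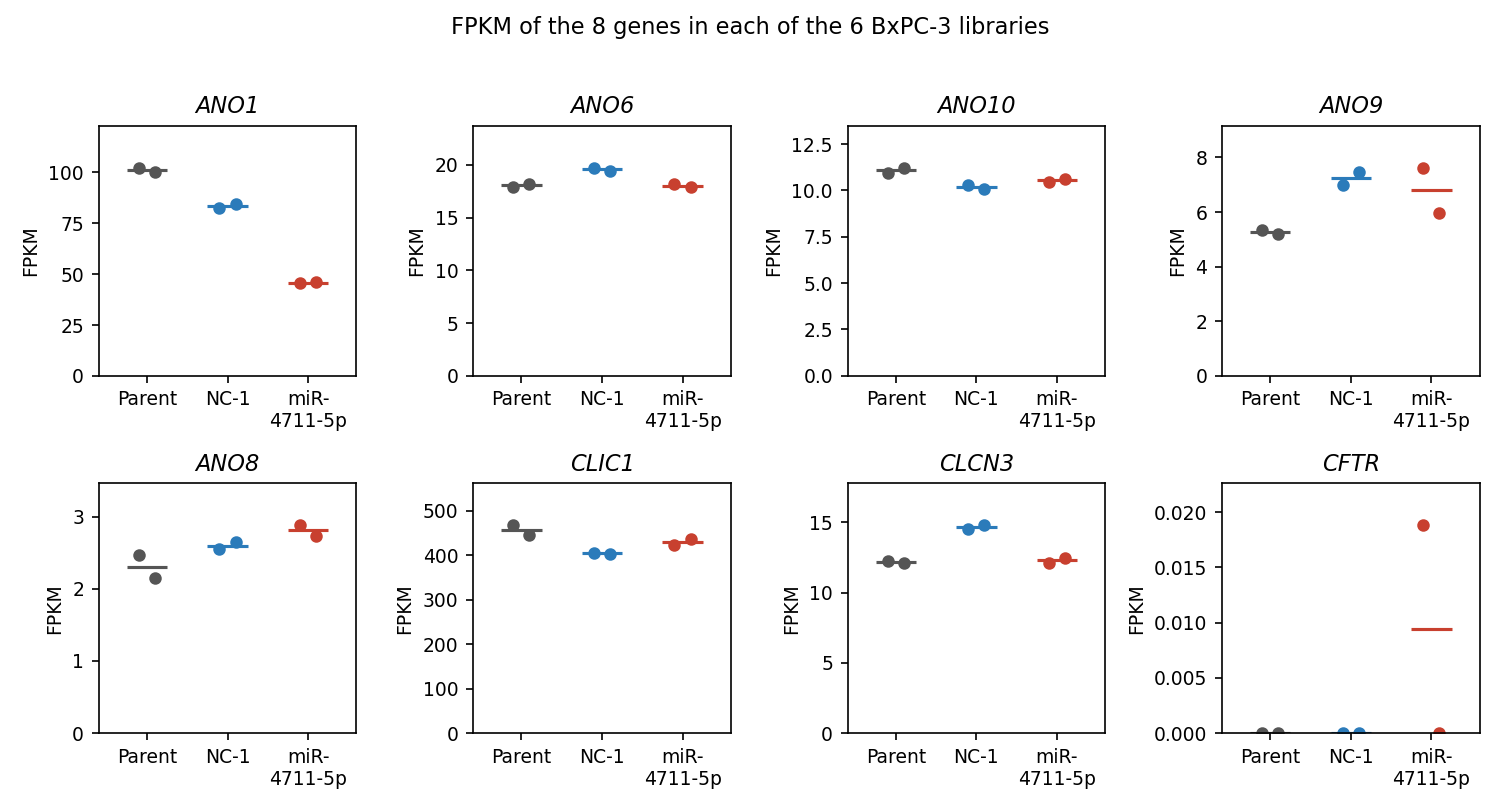
FPKM of each of the 8 genes in the 6 BxPC-3 libraries, with 1 point per library, a bar at the mean of the 2 libraries of a group, and a y axis of its own for each gene. ANO1 is at 45.7 and 46.0 FPKM in miR-4711-5p, below all 4 controls, while for ANO6, ANO10, CLCN3 and CLIC1 at least 1 miR-4711-5p library lies within the range of the controls.

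Of the 7 genes tested, 2 passed the threshold between miR-4711-5p and Parent (ANO1 lower, ANO9 higher), where 43.4% of all 12040 genes tested passed (18.7% higher and 24.7% lower). The selection of ANO1 had fixed its side of this comparison, so that nothing is read from its place in the count. Between miR-4711-5p and NC-1, 2 passed (ANO1 and CLCN3, both lower), against 39.6% of all genes (18.4% higher and 21.2% lower). Between NC-1 and Parent, 4 passed (ANO9 and CLCN3 higher, ANO1 and CLIC1 lower), against 27.2% of all genes (12.1% higher and 15.1% lower). For ANO1 and ANO8, both miR-4711-5p libraries lay outside the range of the 4 controls, as for 50.1% of all genes, and for all 7 genes both NC-1 libraries lay outside the range of Parent, as for 65.5% of all genes. ANO1 was the one gene of the 7 called with the same sign against both controls, as 25.5% of all genes were, with its side against Parent fixed by the selection. These comparisons share libraries with each other. The count of genes called against Parent dropped from 2 to 1 in 5 of the 6 fits that left out 1 library, because of ANO9.

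**Figure D3:**
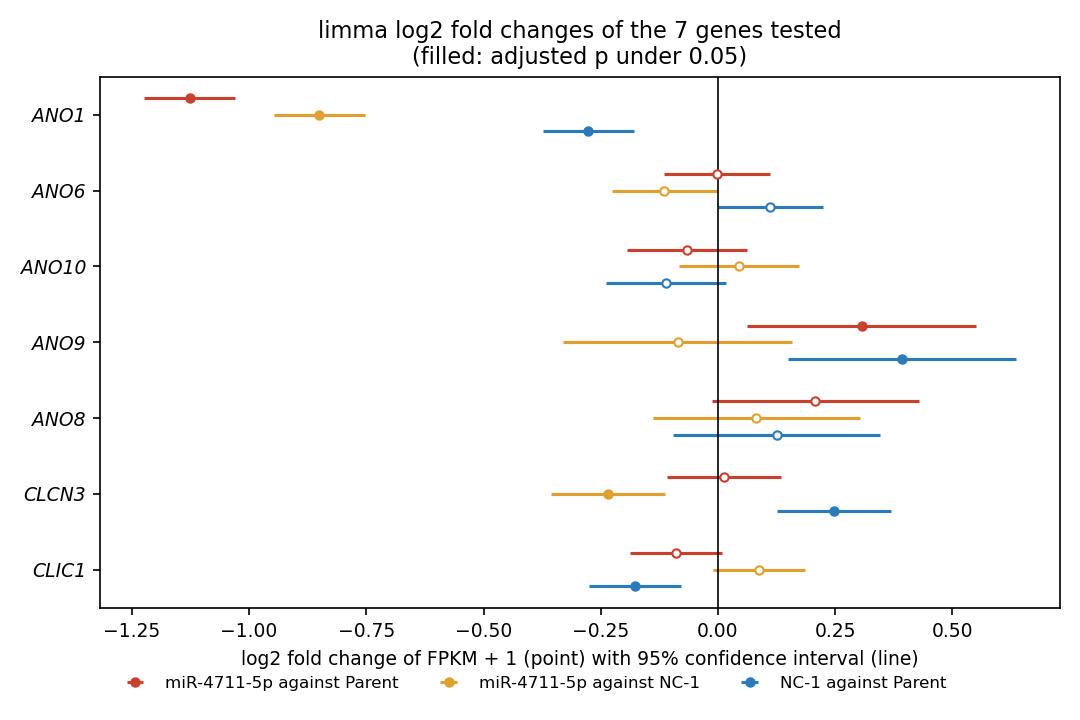
The limma log2 fold change of FPKM + 1 (x axis) is shown for the 7 genes tested in 3 comparisons, with lines for 95% confidence intervals and filled points for an adjusted p under 0.05. ANO1 lies at -1.13 against Parent and -0.85 against NC-1, apart from the other 6 genes, whose values with miR-4711-5p lie between -0.23 and 0.31.

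The wider families of chloride channels and anoctamins, 44 genes of which 27 passed the filter, were then compared. With miR-4711-5p, 16 of the 27 passed the test against Parent (7 higher and 9 lower), and 13 against NC-1 (4 higher and 9 lower), where 43.4% and 39.6% of all genes tested passed. Their median log2 fold change was -0.002 against Parent and -0.086 against NC-1, beside -0.013 and 0.004 over all genes tested. Lower against both controls were 7 genes, namely ANO1, CLIC2, CLIC4, LRRC8A, LRRC8D, CLCA2 and CLCA4 (25.9% of the 27, beside 15.4% of all genes tested). Higher against both were CLCN7 and TMEM206 (7.41% of the 27, beside 10% of all genes tested), and LRRC8C had opposite signs. The count against Parent fell to 7 without Parent replicate 2 and to 10 without miR-4711-5p replicate 1, and that against NC-1 to 7 without miR-4711-5p replicate 1. The counts over all 12040 genes fell in the same fits, to 3990 and 3164 from 5230 against Parent and to 2815 from 4763 against NC-1. With each of the 6 libraries left out in turn, 7 of the 16 calls against Parent held every time (ANO1, OSTM1, LRRC8A, LRRC8D, CLCA2, CLCA4 and TMEM206), as did 7 of the 13 against NC-1 (ANO1, CLCN7, CLIC4, LRRC8A, LRRC8C, LRRC8D and CLCA2). The other calls were lost in at least 1 of these fits, with an adjusted p of up to 0.255 against Parent and 0.194 against NC-1, so that, beside ANO1 with its selection against Parent, LRRC8A, LRRC8D and CLCA2 were the genes of these families whose calls held every time with the same sign in both comparisons.

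The volume-regulated anion channel, which opens when cells swell, is built from the obligatory subunit LRRC8A and from LRRC8B to LRRC8E. LRRC8D, the subunit that lets the channel pass larger organic solutes, was at 22.1 and 24.0 FPKM in Parent, 20.2 and 20.9 FPKM in NC-1, and 10.2 and 10.4 FPKM in miR-4711-5p. Both miR-4711-5p libraries were far below all 4 controls, and its log2 fold change was -1.09 versus Parent (SE 0.058, adjusted p = 1.7e-05) and -0.93 against NC-1 (SE 0.058, adjusted p = 3.65e-05). LRRC8D held no seed match in its 3′ UTR or coding region, and its decrease was close in size to that of ANO1.

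LRRC8A was the most abundant of these subunits, at 102 and 93.2 FPKM in Parent, 100.2 and 99.1 FPKM in NC-1, and 82.1 and 78.3 FPKM in miR-4711-5p. The miR-4711-5p libraries lay below all controls, and a log2 fold change of -0.28 against Parent (adjusted p = 0.00568) and -0.31 against NC-1 (adjusted p = 0.0038). LRRC8C took an intermediate position, at 10.3 and 11.2 FPKM in Parent, 6.23 and 6.13 FPKM in NC-1, and 8.66 and 8.58 FPKM in miR-4711-5p. Its sign with miR-4711-5p was therefore negative against Parent (log2 fold change -0.29, adjusted p = 0.0102) and positive against NC-1 (0.42, adjusted p = 0.00223), with NC-1 itself at -0.71 against Parent (adjusted p = 0.00105). LRRC8B, with an 8mer in its 3′ UTR, was higher than Parent (log2 fold change 0.28, adjusted p = 0.0231, but 0.0609 without a filter on low values) and at 0.08 against NC-1 (adjusted p = 0.472). LRRC8E passed in neither comparison, with log2 fold changes of 0.10 (adjusted p = 0.529) and 0.17 (adjusted p = 0.314).

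The CLCA genes encode secreted or membrane-bound proteins that modulate calcium-activated chloride currents. CLCA2 was at 5.57 and 6.39 FPKM in Parent, 6.91 and 7.43 FPKM in NC-1, and 2.31 and 3.08 FPKM in miR-4711-5p. The miR-4711-5p libraries did not overlap the controls, and the log2 fold change was -0.92 against Parent (SE 0.12, adjusted p = 0.000788) and -1.15 against NC-1 (SE 0.12, adjusted p = 0.000333). CLCA4 was low throughout, at 1.84 and 1.83 FPKM in Parent, 1.28 and 1.54 FPKM in NC-1, and 0.372 and 0.812 FPKM in miR-4711-5p. Its log2 fold change was -0.85 versus Parent (SE 0.16, adjusted p = 0.00488) and -0.61 versus NC-1 (SE 0.16, adjusted p = 0.0205), with 1 FPKM added, which understates the change of such a low gene. With 0.1 FPKM added, the values were -1.561 and -1.197, and by the ratio of mean FPKM the fold change against Parent was -3.10 for CLCA4, -2.22 for CLCA2 and -2.23 for LRRC8D, beside -2.21 for ANO1. CLCA4 held a 7mer-A1 match in its 3′ UTR, and CLCA2 held one in its coding region only.

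Of the 7 genes of the CLC family tested, 3 were higher than Parent and 4 did not pass the test, and 2 were higher and 1 lower than NC-1 (18.7% of all genes were higher than Parent, and 18.4% higher and 21.2% lower than NC-1). CLCN7, the chloride and proton exchanger of lysosomes, was at 19.1 and 17.4 FPKM in Parent, 16.1 and 16.4 FPKM in NC-1, and 21.6 and 22.6 FPKM in miR-4711-5p. It was above every control, and a log2 fold change of 0.26 against Parent (adjusted p = 0.0122) and 0.42 against NC-1 (adjusted p = 0.00176). OSTM1, the partner subunit of CLCN7, rose with both treatments, by 0.67 with miR-4711-5p (adjusted p = 0.000272) and by 0.56 with NC-1 (adjusted p = 0.00217), and differed by 0.11 between them (adjusted p = 0.231). CLCN6, a late endosomal exchanger, was also higher than Parent with both treatments, though highest with NC-1, at 0.40 with miR-4711-5p and 0.49 with NC-1 (adjusted p = 0.0135 and 0.0113, the second lost in 3 of the 6 fits that left out 1 library) and -0.09 between the treatments (adjusted p = 0.491). CLCN2, a plasma membrane channel, was at 0.04 against Parent (adjusted p = 0.69) and higher than NC-1 by 0.31 (adjusted p = 0.0113). CLCN4 (-0.03 and -0.17) and CLCN5 (0.34 and 0.00), both endosomal exchangers, passed against neither control (adjusted p between 0.172 and 0.991). The 2 miR-4711-5p libraries of CLCN5 differed, and its value against Parent was 0.594 without replicate 2 (adjusted p = 0.0379) and 0.08 without replicate 1.

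The 3 relatives of CLIC1 that were tested passed as lower against NC-1, and CLIC1 did not, where 21.2% of all genes passed as lower. CLIC4 was at 45.3 and 48.7 FPKM in Parent, 55.0 and 60.0 FPKM in NC-1, and 41.3 and 38.7 FPKM in miR-4711-5p. Its log2 fold change was -0.23 versus Parent (adjusted p = 0.0247, but 0.0559 without a filter on low values) and -0.51 versus NC-1 (adjusted p = 0.000884), and NC-1 was above Parent (0.29, adjusted p = 0.0181). The value for NC-1 against Parent ran from 0.22 to 0.35 over the fits that left out 1 library, and its call did not hold in all of them. CLIC2 was lower against Parent (-0.35, adjusted p = 0.0452) and NC-1 (-0.46, adjusted p = 0.0191), and CLIC3 against NC-1 (-0.54, adjusted p = 0.0395) but not past the threshold against Parent (-0.39, adjusted p = 0.103), where it was at -0.605 with a pseudocount of 0.1, -0.606 without miR-4711-5p replicate 2 (adjusted p = 0.0402) and -0.17 without replicate 1. Both were low, at 0.820 to 2.75 FPKM over the 6 libraries, and with a pseudocount of 0.1 in place of 1 CLIC2 was at -0.621 and -0.786 and CLIC3 at -0.812 against NC-1. The call of CLIC2 against Parent was lost with median-of-ratios scaling (adjusted p = 0.0508), with a replicate block (adjusted p = 0.0649) and in 4 of 6 fits that left out 1 library, and the calls of CLIC2 and CLIC3 against NC-1 were lost in 3 and 4 of those fits. CLIC3 against NC-1 was also not called without a filter on low values (adjusted p = 0.0969), in the fit of only the 2 groups (adjusted p = 0.069) or with the block (adjusted p = 0.0566), and was at -0.32 without miR-4711-5p replicate 1.

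TMEM206, the proton-activated chloride channel, was at 4.34 and 4.42 FPKM in Parent, 4.46 and 5.16 FPKM in NC-1, and 6.08 and 6.34 FPKM in miR-4711-5p. The miR-4711-5p libraries were above all controls, by 0.42 against Parent (adjusted p = 0.00539) and 0.31 against NC-1 (adjusted p = 0.0199, but 0.0566 without a filter on low values). CLCC1, a channel of the endoplasmic reticulum with a pair of 7mer matches in its 3′ UTR, was higher than Parent (0.23, adjusted p = 0.0151) and at 0.12 against NC-1 (adjusted p = 0.128). TTYH2 was lower than Parent (-0.27, adjusted p = 0.0354, but 0.0536 with a replicate block and 0.0764 without a filter on low values) and at -0.11 against NC-1 (adjusted p = 0.347), and TTYH3 passed against neither (0.05 and 0.12, adjusted p = 0.465 and 0.0817).

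**Figure D4:**
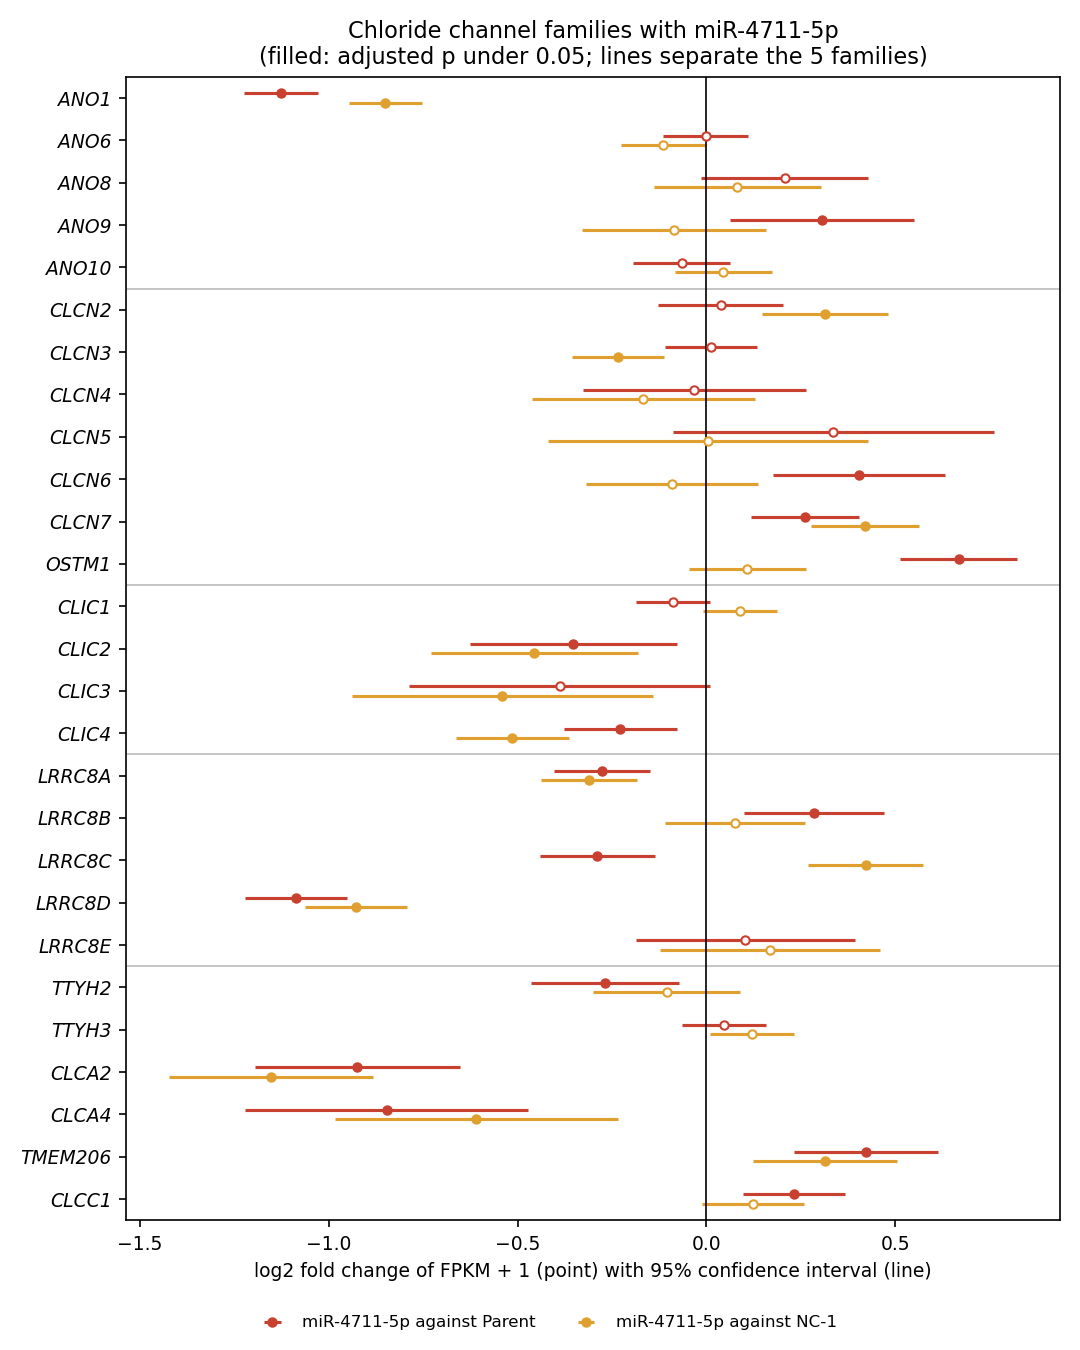
Log2 fold changes of FPKM + 1 with miR-4711-5p against Parent and against NC-1 (x axis, with 95% confidence intervals as lines) are shown for the 27 genes tested in 5 families, filled where the adjusted p is under 0.05. ANO1, LRRC8D, CLCA2 and CLCA4 lie farthest to the left on this scale. They are at -1.13, -1.09, -0.92 and -0.85 against Parent, an order that depends on the 1 FPKM added. Against NC-1 they are at -0.85, -0.93, -1.15 and -0.61, with CLCA2 farthest to the left.

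Set beside the seed matches, 6 of the 27 genes held one in the 3′ UTR (22.2%). Of these 6, ANO1 and CLCA4 were lower against both controls, CLCN6, LRRC8B and CLCC1 were higher than Parent and were not called against NC-1, and ANO6 was not called. Of the 21 without one, 7 were lower and 4 higher against Parent, and 7 were lower and 4 higher against NC-1. Over all genes tested, 24.7% were lower and 18.7% higher against Parent, and 21.2% and 18.4% against NC-1. The median log2 fold change was 0.11 with a match and -0.03 without one against Parent, and -0.10 and 0.00 against NC-1. No test was made of this difference. The study chose ANO1 partly for a match and a decrease from Parent, which fixed its place in the count against Parent.

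CFTR is held at the apical membrane by PDZ scaffold proteins and works beside SLC26 anion exchangers, and these were compared although CFTR itself was at or near 0. Of 10 such genes 6 passed the filter, of which 4 were lower against Parent and 3 against NC-1, and the others did not pass the test, where 24.7% and 21.2% of all genes were lower. SLC9A3R1, the scaffold NHERF, was at 105 and 101 FPKM in Parent, 82.0 and 85.9 FPKM in NC-1, and 59.1 and 58.3 FPKM in miR-4711-5p. The 3 groups were in the same order as for ANO1, with log2 fold changes of -0.80 against Parent (SE 0.045, adjusted p = 2.1e-05), -0.51 against NC-1 (SE 0.045, adjusted p = 0.000189) and -0.29 for NC-1 against Parent (adjusted p = 0.00508). How many of all genes showed this order was not counted, and 26.3% had both miR-4711-5p libraries below all 4 controls. No link with ANO1 is read from the order. SLC26A6, a chloride and bicarbonate exchanger, was lower against Parent (-0.46, adjusted p = 0.0032) and NC-1 (-0.29, adjusted p = 0.0234), and so was the scaffold SLC9A3R2 (-0.19 in each comparison, adjusted p = 0.0317 and 0.0323).

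Cotransporters carry chloride across the membrane of epithelial cells. Of 16 genes of cotransport, exchange and the WNK kinases 10 were tested, of which 3 were higher and 1 lower against Parent, and 2 were higher against NC-1, beside 43.4% of all genes called in either direction against Parent and 39.6% against NC-1. SLC12A2, the sodium, potassium and chloride cotransporter that loads cells with chloride, was at 6.83 and 7.79 FPKM in Parent, 7.72 and 7.17 FPKM in NC-1, and 9.71 and 9.35 FPKM in miR-4711-5p. It was higher by 0.34 (adjusted p = 0.0103) and 0.32 (adjusted p = 0.015). SLC12A7, a potassium and chloride cotransporter, was higher by 0.59 against Parent (adjusted p = 0.000393) and by 0.21 against NC-1 (adjusted p = 0.0356), with NC-1 above Parent by 0.39 (adjusted p = 0.00635).

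ANO1 opens with calcium released from stores or entering through the plasma membrane, and calmodulin is a calcium sensor that binds many channels. Of 11 genes of calcium release, entry and calmodulin, 10 were tested, of which 2 were higher and 3 lower against Parent, and 1 was higher and 3 lower against NC-1, shares near the 43.4% and 39.6% of all genes called. CALM3, which encodes calmodulin, was at 165 and 164 FPKM in Parent, 176 and 173 FPKM in NC-1, and 65.5 and 64.1 FPKM in miR-4711-5p. Its log2 fold change was -1.33 versus Parent (SE 0.039, adjusted p = 3.3e-06) and -1.42 versus NC-1 (SE 0.039, adjusted p = 3.18e-06), larger than that of ANO1, and it held an 8mer in its 3′ UTR. Of the 43 tested list genes outside the 5 families, 9 held a match in the longest 3′ UTR (20.9%, beside 18.2% of all genes), 2 of them an 8mer. The other 8mer gene, the cotransporter gene SLC12A4, passed against neither control (0.13 and -0.09, limma adjusted p = 0.108 and 0.224). Of the store-operated channel subunits, ORAI3 was lower (-0.25 and -0.37, adjusted p = 0.0194 and 0.00403) and ORAI1 higher (0.40 and 0.27, adjusted p = 0.00309 and 0.018).

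Since ANO6 and several other anoctamins move phospholipids, other scramblase and flippase genes were compared. Of 11, 8 were tested, of which 4 were higher and 1 lower against Parent, 2 higher and 1 lower against NC-1, and 4 higher with NC-1 against Parent, beside 43.4%, 39.6% and 27.2% of all genes called in these comparisons. PLSCR1, an interferon-inducible protein of the phospholipid scramblase family, was at 48.7 and 46.7 FPKM in Parent, 51.1 and 54.6 FPKM in NC-1, and 128 and 122 FPKM in miR-4711-5p. Both miR-4711-5p libraries were far above the controls, with log2 fold changes of 1.37 against Parent (SE 0.053, adjusted p = 5.27e-06) and 1.23 against NC-1 (SE 0.053, adjusted p = 9.3e-06). ATP11A, a flippase that returns phosphatidylserine to the inner leaflet, rose from 16.5 and 15.1 FPKM in Parent through 22.3 and 22.7 FPKM in NC-1 to 34.0 and 33.2 FPKM in miR-4711-5p. Its log2 fold change was 1.04 against Parent (adjusted p = 1.88e-05), 0.56 against NC-1 (adjusted p = 0.00036) and 0.48 for NC-1 against Parent (adjusted p = 0.00217). PLSCR4, near 1 FPKM, was lower (-0.51 and -0.72, adjusted p = 0.0306 and 0.0086), at -0.946 and -1.286 with a pseudocount of 0.1, and at -0.33 without Parent replicate 2 (adjusted p = 0.11).

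**Figure D5:**
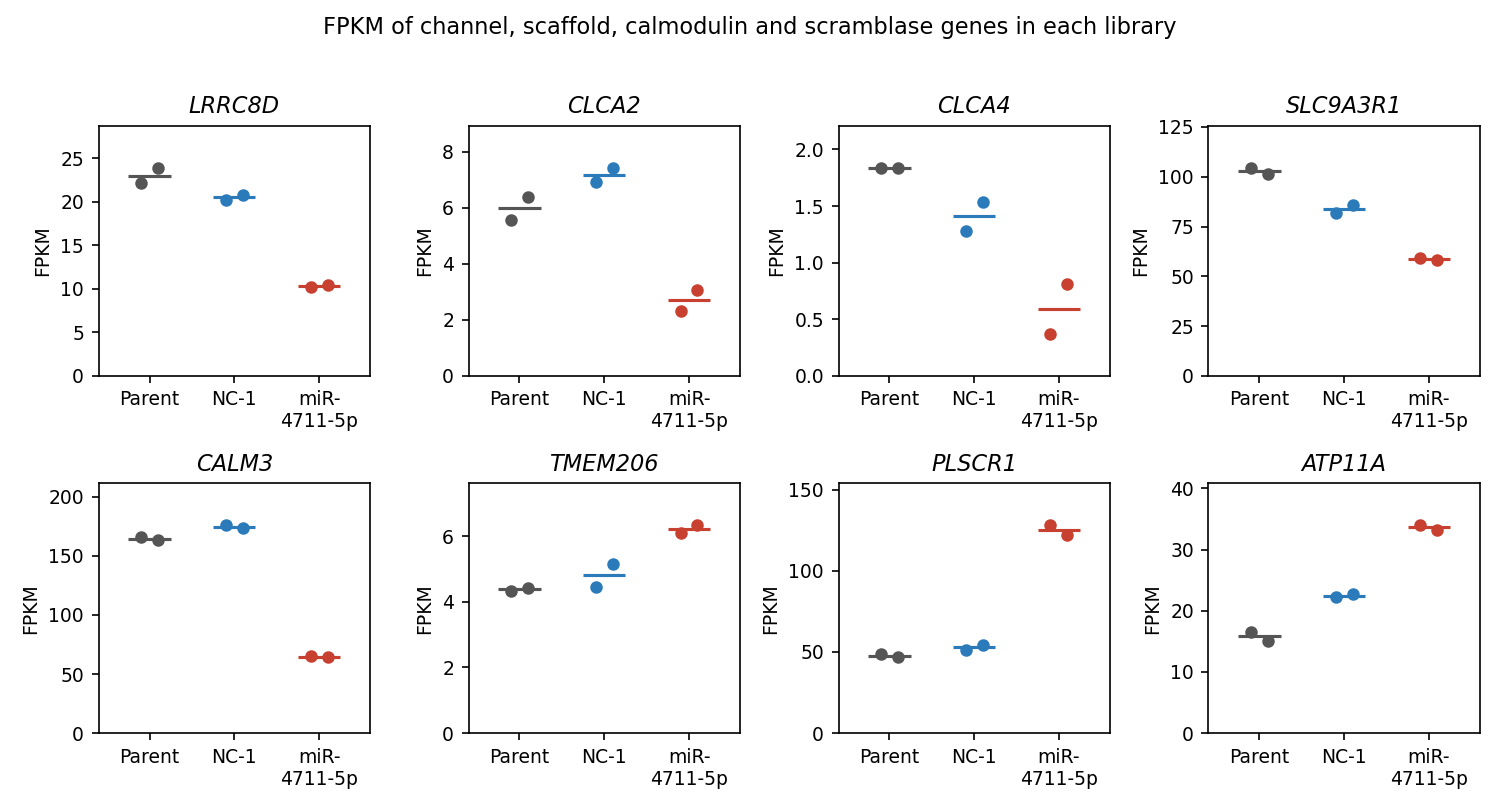
FPKM in the 6 libraries (1 point per library, a bar at the mean of each group, a y axis for each gene) for LRRC8D, CLCA2, CLCA4, SLC9A3R1, CALM3, TMEM206, PLSCR1 and ATP11A. The first 5 are lower in both miR-4711-5p libraries than in all 4 controls, as with 65.5 and 64.1 FPKM for CALM3, and TMEM206, PLSCR1 and ATP11A are higher.

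ANO1 lies in a stretch of chromosome 11 that is often amplified as a block in carcinomas, and its neighbours were compared for that reason. Of 9 neighbours 6 were tested, of which 3 were higher and 2 lower against Parent, and 2 were higher and 2 lower against NC-1, beside 18.7% higher and 24.7% lower of all genes against Parent and 18.4% and 21.2% against NC-1. CCND1, the cyclin D gene, was lower than Parent and NC-1 (log2 fold changes -0.42 and -0.40, adjusted p = 0.001 and 0.00144), as was CTTN, which encodes cortactin (-0.27 and -0.17, adjusted p = 0.00141 and 0.0111). FADD, an adaptor of death receptors, was higher by 0.19 (adjusted p = 0.0171) and 0.39 (adjusted p = 0.000863), and ORAOV1 by 0.34 (adjusted p = 0.00443) and 0.32 (adjusted p = 0.0059).

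By the root-mean-square difference of centred log2(FPKM + 1) over the 6 libraries, the genes most like ANO1 among 6648 compared included NDRG1 (0.0407), ECM1 (0.0477), SOX15 (0.0479) and GM2A (0.0539). NDRG1 was at 55.7 and 53.5 FPKM in Parent, 44.7 and 44.6 FPKM in NC-1, and 26.2 and 24.4 FPKM in miR-4711-5p, the same order of groups as in ANO1. The likeness describes these 6 libraries, which all genes share. Since they were picked for a profile like that of ANO1, no test of these genes is given.

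Among the named genes of the transporter, calcium, lipid and neighbour lists, SLC9A3R1, CALM3, PLSCR1, ATP11A and CCND1 were called against both controls in every fit with 1 library left out. SLC9A3R2, SLC26A6, SLC12A2, SLC12A7, ORAI1, ORAI3, PLSCR4, FADD, ORAOV1 and CTTN lost at least 1 of their calls in at least 1 such fit (adjusted p up to 0.166 against Parent and 0.177 against NC-1). Without a filter on low values, calls were also lost by SLC9A3R2 (adjusted p = 0.0517 against Parent and 0.0536 against NC-1), SLC26A6 (0.0624 against NC-1), SLC12A7 (0.0673 against NC-1) and PLSCR4 (0.0519 against Parent), and without a trend in the prior by SLC9A3R2 (0.0544 and 0.0556) and SLC12A7 (0.056 against NC-1).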

How the data were processed

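The authors sequenced poly(A) RNA as stranded single-end libraries, and deposited FPKM per gene for each library, estimated with Cufflinks and its companion programs after alignment to hg19. The submitters' processing notes name TopHat2 2.1.1, Bowtie2 2.3.5.1, SAMtools 1.2 and Cufflinks 2.2.1. The study's methods give other versions of the alignment tools, and which were run is not settled here. The gene annotation and the strand option are not given in the sources used here. Samples were grouped by their titles. From the deposited FPKM, log2(FPKM + 1) was tested with limma 3.58.1 (R 4.3.3) over all 3 groups in 1 fit, with a trended prior, on the 12040 genes averaging 1 FPKM or more, and p-values were adjusted by the Benjamini-Hochberg method over all of them with a threshold of 0.05. The script was checked on simulated data. With 2 libraries against 2, an exact permutation test cannot go below p = 0.333 (two-sided), so that only the model across all genes is given. Read numbers are unknown, and no counting interval is given.

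The members and the gene lists were chosen with earlier results of these data known. Named were the 8 genes, every tested gene of the 5 chloride channel families, and of the other lists at most 4 genes each, called with the same sign against both controls and largest against NC-1, and the 5 genes most like ANO1; some of these genes are not reported here. Seed matches were searched in GENCODE v44 transcripts lifted to GRCh37, with the longest 3′ UTR of each gene; 10599 of the tested symbols matched directly, 588 through older symbols, and 853 did not match. Protein sequences were not used here. Alternatives were other pseudocounts, filters, scaling, priors, a replicate block, a minimum fold and leaving out each library.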

Additional observations from a re-analysis of the deposited data

How the results depend on the processing

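ANO1 kept its direction and its call in 14 of 14 refitted alternatives against NC-1 and for NC-1 against Parent, where its fold change of -1.21 does not reach a minimum fold of 1.5; its comparison with Parent, on which the study chose it, is left out of this. The Parent libraries that entered that choice are also part of the comparison of NC-1 with Parent. Of the 8 genes, 1 passed against Parent without a filter on low values, in a fit of only the 2 groups, or with a replicate block, each time because ANO9 lost its call. Without a trend in the prior 2 passed, with ANO8 in place of ANO9. In limma, 1 against Parent, 1 against NC-1 and 0 for NC-1 against Parent passed with a fold of at least 1.5 added. Without the filter 2 passed for NC-1 against Parent. Leaving out 1 library gave 1 to 2, 1 to 2 and 1 to 4 genes in these 3 comparisons. The low values for NC-1 against Parent were 1 without Parent replicate 1, 2 without Parent replicate 2, and 1 without either NC-1 library. Of the 27 genes of the channel families, 16, 13 and 9 passed (9 beside 27.2% of all genes), 5, 4 and 1 with a fold of at least 1.5 (9.24%, 8.11% and 2.48% of all genes), and leaving out 1 library gave 7 to 15, 7 to 12 and 3 to 8 (over all 12040 genes, 3164 to 5135, 2815 to 4639 and 1355 to 2296). For NC-1 against Parent these were 4 and 5 without Parent replicates 1 and 2, and 5 and 3 without NC-1 replicates 1 and 2. With 8mer matches alone, 1 of the 8 genes held a site. A fit with 1 library left in a group takes its spread from the other groups. The deviations between replicates 1 and 2 were nearly uncorrelated between groups (0.061, 0.003 and -0.009), which cannot show whether the libraries were prepared in pairs. With the replicate block, 4983, 4564 and 2864 of 12040 genes passed in place of 5230, 4763 and 3279.

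The sign changed in 22 alternatives of single genes, none called by limma in either setting. ANO6 against Parent was 0.02 with median-of-ratios scaling, and CLCN5 against NC-1 was -0.002 with a pseudocount of 0.1. The other sign changes came with 1 library left out. Over the 6 libraries left out in turn, log2 fold changes against Parent ran from -0.011 to 0.007 for ANO6, -0.007 to 0.031 for CLCN3, -0.031 to 0.108 for CLCN2, -0.122 to 0.057 for CLCN4 and -0.048 to 0.254 for LRRC8E. Against NC-1 they ran from -0.239 to 0.067 for ANO9, -0.254 to 0.261 for CLCN5 and -0.189 to 0.008 for CLCN6. For NC-1 against Parent they ran from -0.028 to 0.096 for LRRC8A, -0.184 to 0.053 for LRRC8E, -0.052 to 0.058 for SLC9A3R2, -0.058 to 0.108 for SLC12A2, -0.057 to 0.013 for CCND1 and -0.011 to 0.04 for ORAOV1. Of 1941 values of single genes under an alternative, 1767 kept direction and call, 149 lost the call and 3 gained it; apart from fewer libraries in some fits, the cause was not tested. The protein comparison of the anoctamins was not run.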

Other observations

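Of 24 ligand-gated chloride channel genes, the GABA-A and glycine receptor subunits, most were below the filter. GABRA3 was called higher with miR-4711-5p against Parent (log2 fold change 0.35, limma adjusted p = 0.0164) and was at 0.23 against NC-1 (limma adjusted p = 0.077). GABRE was called lower against NC-1 (-0.31, limma adjusted p = 0.0346) and was at 0.27 against Parent (limma adjusted p = 0.053), with NC-1 above Parent (0.59, limma adjusted p = 0.00614).

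Several other chloride channel and anoctamin genes were below the filter of a mean of 1 FPKM and entered no test. ANO3 was at 0.273 and 0.288 FPKM in Parent, 0.168 and 0.220 FPKM in NC-1, and 0.497 and 0.582 FPKM in miR-4711-5p, so that both miR-4711-5p libraries were above the 4 controls. GABRP, a subunit of the GABA-A receptor chloride channel, was at 0.155 and 0.177 FPKM in Parent, 0.361 and 0.505 FPKM in NC-1, and 0.0766 and 0.0481 FPKM in miR-4711-5p, with NC-1 highest and miR-4711-5p lowest. ANO7 was at 0.138 to 0.429 FPKM with overlapping groups, ANO5 at 0.0309 FPKM or less, and ANO2 and ANO4 were listed at 0 in all 6 libraries. The depth in reads behind these low values is unknown. ANO3 and GABRP were chosen after their values were seen.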
